A study of Homo sapiens with 12 samples.

Results

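The genes described here are 10 that are induced through extracellular signal-regulated kinase (ERK): the phosphatase genes DUSP4, DUSP5 and DUSP6, the Sprouty genes SPRY2 and SPRY4, the SPRED genes SPRED1 and SPRED2, and the transcription factor genes ETV4, ETV5 and FOSL1. They were chosen by name as known feedback and output genes of the pathway, 10 of the 29972 genes listed. The choice was made with earlier results of these data known. Messenger RNA was sequenced from the triple-negative breast cancer lines MDA-MB-436 and BoM-1833, each transfected with small interfering RNA (siRNA) at 5 nM in total and harvested after 72 h. The treated groups, siPHF19, received 2 siRNAs against PHF19, a Polycomb-like subunit of the repressive complex PRC2, mixed in equal parts, and the control groups, siNT, a non-targeting pool from another supplier. Each line had 3 siNT and 3 siPHF19 libraries, 12 in all, from unselected cells of 1 line each. BoM-1833 is a bone-tropic line whose parental lineage is known to carry mutations in RAS pathway genes; no mutation was read from these data. The comparisons ask how the RNA of these genes responded to PHF19 siRNA in each line, whether the responses differed, and how their control levels compared.

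Growth factor receptors activate RAS, which starts the kinase cascade from RAF through MEK to ERK, and active ERK enters the nucleus and raises transcription of a set of target genes. Many of these targets feed back on the pathway: DUSP phosphatases remove the activating phosphates from ERK, and Sprouty and SPRED proteins act upstream of it, on receptor adaptors, RAS or RAF. Others, such as the ETS factors ETV4 and ETV5 and the AP-1 subunit FOSL1 (FRA-1), carry the signal on as transcription factors, and FOSL1 is known to be abundant in mesenchymal triple-negative lines. Several of these genes are known to be held down by the repressor capicua (CIC) until ERK signaling removes it from their promoters.

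The promoter of DUSP6 is shown because this gene had the widest gap between the lines of all 10 (levels are given further on). RefSeq gives 8 promoter windows for 5 of the 10 genes (GRCh38.p14), those of DUSP6, SPRY2, SPRY4, SPRED1 and SPRED2. Each window runs from 250 bases before an annotated start to 50 after it, and was searched on both strands. The stretch printed is the 250 bases before the DUSP6 start, chr12:89352502-89352751 on the minus strand, 5′ to 3′, with the match to the CIC octamer in capitals.
DUSP6 promoter: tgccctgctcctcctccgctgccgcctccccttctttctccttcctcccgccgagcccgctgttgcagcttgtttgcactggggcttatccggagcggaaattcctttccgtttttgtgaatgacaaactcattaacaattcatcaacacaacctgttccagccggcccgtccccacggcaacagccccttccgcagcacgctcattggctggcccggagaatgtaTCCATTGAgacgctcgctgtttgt
The octamer was searched as TGAATGAA, TGAATGGA, TCAATGAA or TCAATGGA. The capitals are the reverse complement of TCAATGGA and begin 24 bases before the start. Another match, also TCAATGGA on the reverse strand, lies at 89352493 to 89352500, just past the start, and no base is shared between the matches. A single match or more occurred in 3.77% of 35116 windows of 300 bases, and at least 2 in 0.327%. The windows of SPRY2, SPRY4 and SPRED1 held no match to this octamer, to AP-1 (TGAGTCA or TGACTCA), to CRE (TGACGTCA), to the ETS sequence CCGGAAG or to the SRF CArG box. Another window, of SPRED2, held TGACTCA across its start, an AP-1 match of the kind found in 4.95% of windows. A match is a match of letters, and binding of these factors was not measured.

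Recovered read totals were 15.2 to 24.0 M per library in MDA-MB-436 and 13.7 to 21.3 M in BoM-1833. In the authors' deposited tables PHF19 itself fell by 3.36 (adjusted p = 2.12e-211, SE 0.11) in MDA-MB-436 and by 3.19 (adjusted p = 1.53e-218, SE 0.10) in BoM-1833 on the log2 scale. Replicate libraries differed by more than counting error, with chi-square values per degree of freedom of 5.92 to 24.1 between siNT libraries and 2.29 to 3.45 between siPHF19 libraries, so the controls varied more. Nothing in the labels says that the 3 libraries of a group came from separate cultures, so p-values measure only the spread between these libraries. Of the hormone receptor genes, ESR1 and PGR were at or near 0 in all groups, while ERBB2 (HER2) had means of 1056 and 1041 normalized counts in the siNT groups of MDA-MB-436 and BoM-1833. All 5 mesenchymal markers (VIM, CD44, CAV1, CAV2 and MSN) had group means of 1160.1 normalized counts or more. With siPHF19 the authors' deposited tables call CD44 (-0.29) and CAV1 (-0.37) lower in MDA-MB-436, VIM (-0.21) and MSN (-0.18) lower in BoM-1833, and CAV2 higher in both (0.38 and 0.51). Of 7 luminal markers, KRT8 and KRT18 were called higher with siPHF19 in both lines and none lower, CDH1 was near 0, and KRT19 and GATA3 were near 0 in MDA-MB-436 only. Of 3 blood cell markers CD3E was at 0 in all libraries, PTPRC reached a group mean of 18.4 at most, and CD14 had 305 in MDA-MB-436 siNT, where the authors' deposited table calls it lower with siPHF19 (adjusted p = 0.0399), and 93.5 in BoM-1833 siNT. The part of these marker changes in the results for the 10 genes was not tested. In such bulk libraries fewer cells with an RNA and less RNA per cell cannot be told apart.

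With PHF19 siRNA, FOSL1, ETV5 and SPRED1 fell in both lines, DUSP5 and SPRY2 rose in MDA-MB-436, and DUSP4 rose in BoM-1833. In MDA-MB-436, 5 of the 10 genes were called (adjusted p below 0.05 in the authors' deposited DESeq2 Wald test), 2 higher and 3 lower, where 22.1% of 14243 genes tested were called. In BoM-1833, 4 of 10 were called, 1 higher and 3 lower, where 10.9% of 12906 genes tested were called. The median log2 fold change of the 10 genes was -0.14 in MDA-MB-436, against -0.0022 over all genes tested, and -0.01 in BoM-1833, against -0.0035. By group means the called genes lay between 0.614 and 1.59 of their control level, and the feedback genes did not all move one way. SPRED1, ETV5 and FOSL1 were lower in both lines, 3 of 10, where 3.12% of 12290 genes tested in both were; no member was higher in both.

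**Figure D1:**
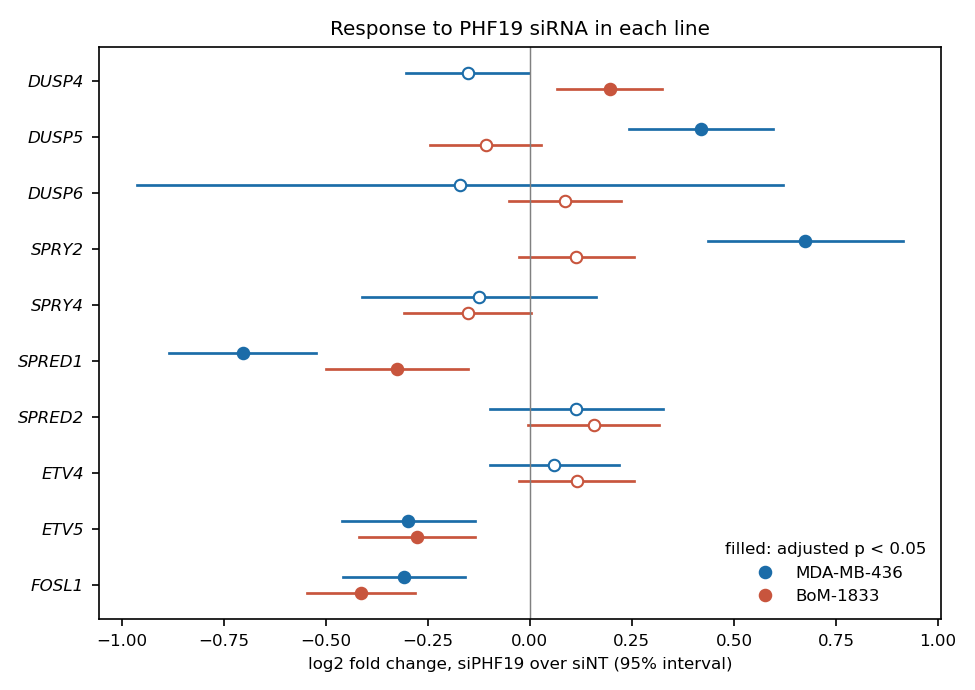
The log2 fold change of siPHF19 over siNT in the authors' deposited tables is plotted for each of the 10 genes (horizontal axis, with its 95% interval), MDA-MB-436 in blue and BoM-1833 in red; filled points have an adjusted p below 0.05. SPRED1, ETV5 and FOSL1 lie left of 0 in both lines, DUSP5 and SPRY2 lie right of 0 in MDA-MB-436, and the MDA-MB-436 interval of DUSP6 is the widest.

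The DUSP genes encode dual-specificity phosphatases that inactivate MAP kinases: DUSP4 and DUSP5 act in the nucleus, and DUSP6 in the cytoplasm, where it is selective for ERK. DUSP5 (chromosome 10, 110497838 to 110511544, plus strand, GRCh38) had normalized counts of 957, 886 and 1002 in MDA-MB-436 siNT and of 1249, 1199 and 1351 in siPHF19. Every treated library lay above every control. DUSP5 is listed at 0.42 on the log2 scale in the authors' deposited table (adjusted p = 4.72e-05, SE 0.09), and the call held in every refit. In BoM-1833 the DUSP5 counts were 3043, 2683 and 2823 in siNT and 2591, 2760.0 and 2582 in siPHF19, so the groups overlapped. There the authors' deposited table gives -0.11 (adjusted p = 0.392, SE 0.07). DUSP5 has 2 annotated pseudogenes, DUSP5P1 and DUSP5P2, with which reads could be shared.

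DUSP4 (chromosome 8, 29333064 to 29350668, minus strand) showed opposite signs in the lines. In BoM-1833, where it was the most abundant of the 10 by count, siNT libraries had 16224, 17988 and 19185 normalized counts and siPHF19 libraries 21137, 20091 and 19902. The groups did not overlap, by a small margin, and the authors' deposited table calls DUSP4 higher at 0.20 (adjusted p = 0.0298, SE 0.07). That call was lost with edgeR under TMM scaling (adjusted p = 0.0632) and under DESeq2 size factors (0.0616), with limma at pseudocounts 1 (0.0612) and 10 (0.0632), and without siNT replicate 2 (0.102) or siPHF19 replicate 1 (0.231), 2 (0.135) or 3 (0.104). In MDA-MB-436 the counts were 1271, 1301 and 1366 in siNT and 1161, 1211 and 1166 in siPHF19. These groups did not overlap either, with the treated libraries lower, but the gene was not called (-0.15, adjusted p = 0.147, SE 0.08, in the authors' deposited table).

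DUSP6 (chromosome 12, 89347232 to 89353271, minus strand) was not called in either line. In MDA-MB-436 it was barely expressed, with 19, 30 and 22 reads in the siNT libraries and 18, 23 and 23 in the siPHF19 libraries. At this depth its log2 fold change had a 95% interval of -0.96 to 0.62 by the authors' deposited table, so a change of the size seen for most other members was not detectable. In BoM-1833 its normalized counts were 7897, 8053 and 9302 in siNT and 9245, 9083 and 8467 in siPHF19, and the groups overlapped. The authors' deposited table gives 0.09 (adjusted p = 0.549, SE 0.07) there. An antisense gene, AC024909.2, overlaps DUSP6 on the opposite strand, and whether the counting used strand is not given in the sources used here.

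Sprouty proteins are ERK-induced inhibitors of receptor tyrosine kinase signaling. SPRY2 (chromosome 13, 80335976 to 80340951, minus strand) had 275, 269.7 and 299.6 normalized counts in MDA-MB-436 siNT libraries and 459, 478 and 407 in siPHF19 libraries. The treated libraries all lay well above the controls, and this was the largest rise among the 10 genes in either line. The authors' deposited table lists 0.67 on the log2 scale (adjusted p = 8.25e-07, SE 0.12), a 1.59-fold rise by group means. In BoM-1833 SPRY2 had 1403, 1499 and 1453 counts in siNT and 1527, 1621 and 1565 in siPHF19. The groups did not overlap, yet the difference was not called (0.11, adjusted p = 0.383, SE 0.07, in the authors' deposited table).

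SPRY4 (chromosome 5, 142310427 to 142326455, minus strand), the other Sprouty gene, was called in neither line, and its groups overlapped in both. Its controls were spread widely in MDA-MB-436, at 394, 487 and 588 normalized counts, against 458, 481 and 407 with siPHF19. On the log2 scale the authors' deposited tables list -0.12 (adjusted p = 0.606, SE 0.15) in MDA-MB-436 and -0.15 (adjusted p = 0.250, SE 0.08) in BoM-1833. Without siNT replicate 1 SPRY4 was called lower in BoM-1833 (-0.20, adjusted p = 0.0355), and without siNT replicate 3 its sign turned in MDA-MB-436 (0.02). SPRY4 overlaps the antisense gene SPRY4-AS1.

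SPRED proteins recruit the RAS inactivator neurofibromin (NF1) to the membrane. SPRED1 (chromosome 15, 38252326 to 38357249, plus strand) had 884, 994 and 949 normalized counts in MDA-MB-436 siNT and 588, 587 and 562 in siPHF19. The groups were far apart and the treated libraries nearly equal. This was the largest decrease among the 10 genes, at -0.70 (adjusted p = 1.52e-12, SE 0.09) in the authors' deposited table, or 0.614 of the control level by group means. In BoM-1833 the SPRED1 counts were 1424, 1791 and 1735 in siNT and 1303, 1308 and 1338 in siPHF19. The groups again did not overlap, though siNT replicate 1 came close to the treated libraries. The authors' deposited table gives -0.32 (adjusted p = 0.00425, SE 0.09) there, a call that was lost without siNT replicate 2 (adjusted p = 0.0978) or siPHF19 replicate 2 (0.0531). SPRED2 (chromosome 2, 65310851 to 65432637, minus strand) was not called: the authors' deposited tables list 0.11 (adjusted p = 0.506, SE 0.11) in MDA-MB-436 and 0.16 (adjusted p = 0.252, SE 0.08) in BoM-1833, with overlapping groups in both.

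The 3′ UTR of SPRED1 is shown because it holds the most copies of the hexamer AAACTG among the 10 genes. An earlier analysis of these data had counted this hexamer among genes lower in both lines, and the sequences of the siRNAs are not given in the sources used here. The longest annotated 3′ UTR of SPRED1 (GENCODE v29, GRCh38) has 5585 bases and 5 copies, printed here 5′ to 3′ with 12 bases on each side and the hexamer in capitals.
SPRED1 site 1: ttatttttatttAAACTGgccaaaagcaaa
SPRED1 site 2: ttgccccagatcAAACTGaacaatgtatat
SPRED1 site 3: aggaagcactagAAACTGgcattattgttg
SPRED1 site 4: atgaacaatgaaAAACTGtttaactcatgt
SPRED1 site 5: aagtatacttttAAACTGaaagttcacata
The 3′ UTR of SPRY4 held 4 copies, those of DUSP4 and ETV5 held 2 each, and those of DUSP5 and DUSP6 held 1 each. None was found in those of SPRY2, SPRED2, ETV4 and FOSL1. Per kilobase SPRY4 had more (1.06) than SPRED1 (0.895), and DUSP5 (0.894) and ETV5 (0.858) came close to SPRED1. Of the genes that were lower in both lines, SPRED1 and ETV5 thus held it and FOSL1 did not. SPRY4, DUSP4, DUSP5 and DUSP6, which were not called lower in either line, held it too. The hexamer was taken from earlier work on genes lower in both lines of these data, so its presence in such genes is no separate evidence. Of 11018 genes tested in both lines, 47.7% held at least 1 copy, in 3′ UTRs with a median of 1412 bases. Its part in the decrease of SPRED1 was not tested.

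The transcription factor genes of the set fell or stayed near their control level. FOSL1, an AP-1 subunit that ERK both induces and stabilizes (chromosome 11, 65892049 to 65900573, minus strand), had 4768, 5032 and 5609.7 normalized counts in MDA-MB-436 siNT and 4089, 4238 and 4113 in siPHF19. In BoM-1833 it had 5527, 5634 and 4953 in siNT and 3904, 3958 and 4233 in siPHF19. In both lines every treated library lay below every control. By the authors' deposited tables FOSL1 fell by 0.31 (adjusted p = 6.54e-04, SE 0.08) in MDA-MB-436 and by 0.41 (adjusted p = 4.98e-08, SE 0.07) in BoM-1833 on the log2 scale. Both calls held in every refit. FOSL1 has a pseudogene, FOSL1P1.

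ETV5 (chromosome 3, 186046308 to 186110318, minus strand) encodes an ETS factor of the PEA3 group. Its normalized counts were 1295, 1296 and 1255 in MDA-MB-436 siNT and 1123, 1015 and 992 in siPHF19. In BoM-1833 they were 1884, 1895 and 1978 in siNT and 1494, 1679.6 and 1583 in siPHF19. The groups did not overlap in either line. The decreases were alike in size, at -0.30 (adjusted p = 0.00304, SE 0.08) and -0.28 (adjusted p = 0.00252, SE 0.07) in the authors' deposited tables. The call was lost in MDA-MB-436 without siNT replicate 2 (adjusted p = 0.0736) or siPHF19 replicate 2 (0.0853) or 3 (0.0851), and in BoM-1833 without siPHF19 replicate 1 (0.0723). ETV5 overlaps DGKG on the same strand and ETV5-AS1 on the opposite strand, so reads of these genes may be hard to separate.

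ETV4, the PEA3 paralog of ETV5 (chromosome 17, 43527844 to 43579620, minus strand), did not pass the test in either line. Its normalized counts spanned 956 to 1013 in MDA-MB-436 siNT and 994 to 1053 in siPHF19, and 1665 to 1842 and 1816 to 1960.3 in BoM-1833. The ranges overlapped in both lines. The authors' deposited tables give 0.06 (adjusted p = 0.661, SE 0.08) and 0.11 (adjusted p = 0.377, SE 0.07). ETV4 overlaps DHX8 on the opposite strand.

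The size of the response differed between lines for 3 of the 10 genes, DUSP4, DUSP5 and SPRY2 (z test on the log2 fold changes of the authors' deposited tables, adjusted over 12290 genes), where 4.89% of genes differed. For DUSP5 the response in BoM-1833 minus that in MDA-MB-436 was -0.53 (95% interval -0.75 to -0.31, adjusted p = 2.60e-04). It held in every refit. For SPRY2 the difference was -0.56 (-0.84 to -0.28, adjusted p = 0.00366), and it was lost without siNT replicate 2 (0.0770) or siPHF19 replicate 1 (0.0610) or 2 (0.0957) of MDA-MB-436. For DUSP4 it was 0.35 (0.15 to 0.55, adjusted p = 0.0173), and it was lost without siNT replicate 2 (0.123) or siPHF19 replicate 1 (0.151), 2 (0.0915) or 3 (0.127) of MDA-MB-436, or siPHF19 replicate 1 of BoM-1833 (0.0740).

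For the other 7 genes no difference between lines passed the test. SPRED1 came closest, with a decrease that was 0.38 smaller on the log2 scale in BoM-1833 (95% interval 0.13 to 0.63, adjusted p = 0.0587). That difference was called in 1 joint DESeq2 fit (adjusted p = 0.0444) and without siNT replicate 1 of MDA-MB-436 (0.0343) or siNT replicate 2 of BoM-1833 (0.0389). For FOSL1 the difference was -0.11 (-0.31 to 0.09) and for ETV5 0.02 (-0.19 to 0.24), so differences of up to about these bounds remain possible. The interval for DUSP6, -0.55 to 1.06, was the widest.

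In the control libraries DUSP6, DUSP4 and the Sprouty genes differed far more between the lines than any of the 10 genes did with siRNA. The tables of the lines were normalized separately, so levels across lines are given as RPM (reads per M recovered reads of the library), computed alike for all libraries and described without a test. Of the 10 genes, 7 were at least 2-fold higher in BoM-1833 siNT with no overlap between libraries, and none was 2-fold lower, where 19.8% of 14139 genes were higher by this rule. The median ratio of BoM-1833 to MDA-MB-436 was 3.004 over the 10 genes. On the log2 scale the median ratio was -0.01 over the 11927 genes with a siNT mean of at least 1 RPM in both lines.

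DUSP6 stood apart, with 1.08, 1.25 and 1.45 RPM in MDA-MB-436 siNT and 468, 487 and 553 in BoM-1833 siNT, a ratio of 399. DUSP4 had 66.4, 69.9 and 73.6 RPM against 961, 1088 and 1140.2, a ratio of 15.2. SPRY4 and SPRY2 were 7.31-fold and 5.78-fold higher in BoM-1833. These 4 feedback genes thus showed the widest gaps. DUSP5 was 3.37-fold, SPRED2 2.64-fold and ETV4 2.004-fold higher. ETV4 lay at the limit of the rule: it was 2.04-fold higher under joint TMM scaling of all 12 libraries. It was under 2-fold on the normalized counts as deposited, which were scaled separately in each line. Just outside the rule, SPRED1 was 1.96-fold and ETV5 1.68-fold higher, both without overlap. FOSL1 had 249, 270.4 and 302 RPM in MDA-MB-436 and 328, 341 and 294 in BoM-1833, and its libraries overlapped between the lines.

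**Figure D2:**
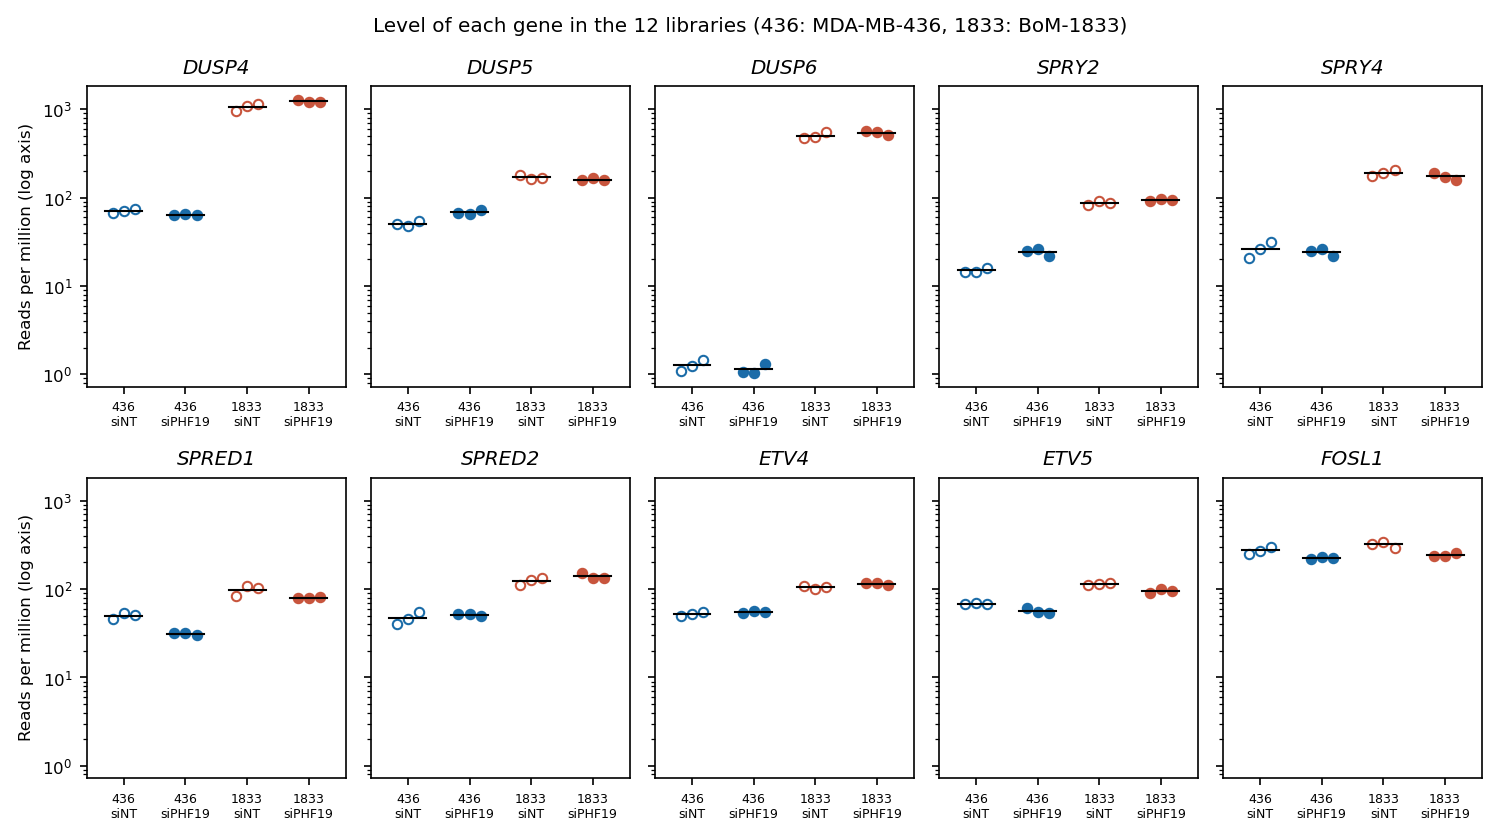
RPM, the reads per M recovered reads (vertical log axis), of the 10 genes are shown in all 12 libraries, 1 panel a gene; open points are siNT and filled points siPHF19, blue for MDA-MB-436 and red for BoM-1833, and black bars are means of 3 libraries. The gap between lines is widest for DUSP6 (1.26 against 503 in siNT) and DUSP4 (69.9 against 1063), and the FOSL1 libraries overlap.

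**Figure D3:**
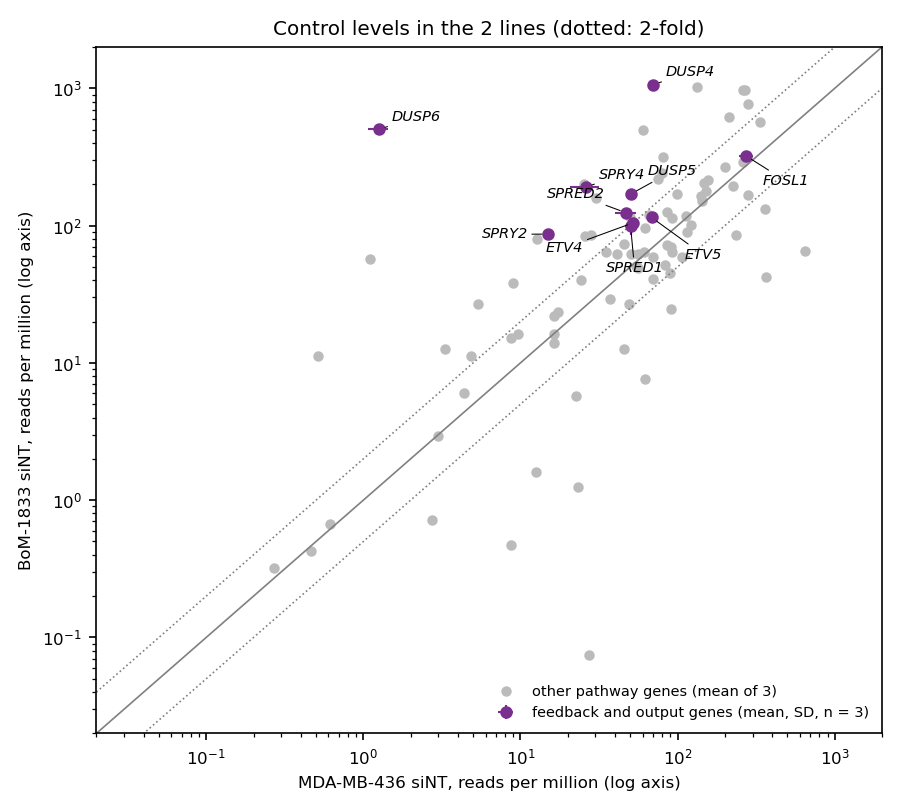
Mean siNT level in MDA-MB-436 (horizontal log axis) is plotted against that in BoM-1833 (vertical log axis), both in RPM, for the 10 genes (purple, with SD, n = 3) and for the other pathway genes (grey). The solid line marks equal levels and the dotted lines a 2-fold gap; 7 of the 10 genes lie above the upper dotted line, and DUSP6 is farthest from it.

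Levels of different genes were compared per kilobase of merged exon length (GENCODE v29), since the gene lengths the authors used are not given in the sources used here. FOSL1 led in both lines, at 149 ± 14.5 RPKM (RPM per kilobase) in MDA-MB-436 siNT and 174 ± 13.0 in BoM-1833 siNT (SD, n = 3). In BoM-1833 the order went on with DUSP4 at 146, DUSP6 at 111 and DUSP5 at 66.5. SPRY4 (38.4) and ETV4 (37.4) followed without being separable, then SPRED2 (29.8) and SPRY2 (28.5), also overlapping, ETV5 (26.5) and SPRED1 (12.7). In MDA-MB-436 the order after FOSL1 was DUSP5 (19.8) and ETV4 (18.7), which overlapped, ETV5 (15.8), SPRED2 (11.3) and DUSP4 (9.64), which overlapped, then SPRED1 (6.46), SPRY4 (5.25) and SPRY2 (4.94), each overlapping the next. DUSP6 came last at 0.277. DUSP4 and DUSP6 thus came right after FOSL1 in BoM-1833, while in MDA-MB-436 they ranked 6 and 10 of 10.

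The rest of the pathway was described over 84 genes in 8 lists, of which 81 could be tested in MDA-MB-436 and 76 in the other line. In MDA-MB-436 15 were called higher and 12 lower, with a median log2 fold change of 0.03, and in BoM-1833 3 higher and 9 lower, with a median of -0.02. Over all genes tested, 1499 were called higher and 1644 lower in MDA-MB-436 (22.1% in all), and 673 and 738 in BoM-1833 (10.9%). Without siNT replicate 1 the BoM-1833 count rose from 12 to 21. Among 9 other ERK outputs, LIF, CXCL8 (listed as IL8) and PLAUR fell in both lines, while EMP1, a membrane protein gene, went opposite ways. CXCL8, a neutrophil chemokine, is listed at -0.94 and -0.38 (log2) by the authors' deposited tables, MDA-MB-436 first. In that order the authors' deposited tables give -0.70 and -0.33 for LIF, an interleukin-6 family cytokine, and -0.56 and -0.60 for PLAUR, the urokinase receptor (adjusted p of 2.50e-04 or below for these 3 genes). For EMP1 the authors' deposited tables give 0.85 (adjusted p = 5.35e-30) and -0.56 (adjusted p = 3.58e-18). EPHA4 was called higher in MDA-MB-436 and not in BoM-1833, and PHLDA1, CCND1, EPHA2 and IER3 in neither line.

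Among 7 PEA3, FOS and JUN relatives, JUN, which pairs with FOS family proteins in AP-1, was the only gene called, lower in both lines. In the authors' deposited tables it changed by -0.33 (adjusted p = 1.12e-05, SE 0.07) in MDA-MB-436 and by -0.29 (adjusted p = 4.34e-05, SE 0.06) in BoM-1833. Of 8 DNA-binding factors regulated by ERK, ELK3, an ETS partner of SRF, fell most, by 1.93 (adjusted p = 6.93e-77, SE 0.10) and 0.61 (adjusted p = 7.03e-21, SE 0.06) on the log2 scale in the authors' deposited tables. ERF fell and SRF and ATXN1L rose in MDA-MB-436, and CIC itself was called in neither line. Of immediate-early genes, ATF3 rose in MDA-MB-436 (1 of 7 tested) and MYC fell in BoM-1833 (1 of 5 tested). For the lists in this paragraph, the share called over all genes tested was 22.1% for MDA-MB-436 and 10.9% for the other line. At these shares a single call among so few immediate-early genes is not unusual.

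Of 9 other restraints of RAS, 4 rose in MDA-MB-436, none fell and 5 were not called, where 22.1% of all genes tested were called. RASA1 and RASA2, GTPase activators, rose by 0.55 and 0.73 in the authors' deposited table, and SPRY1 and RASAL2 rose too. SPRY1 rose at 1.08 from only 20.8 mean normalized counts, and its call was lost in each of the 6 fits without 1 library (adjusted p up to 0.189). In BoM-1833 none of the 9 was called, where 10.9% of all genes tested were called, a share at which few calls among 9 genes would arise. RASA1 had -0.04 and RASA2 0.18 there in the authors' deposited table. The difference between lines passed the z test for RASA1 (adjusted p = 1.49e-04) and RASA2 (0.0299), and not for SPRY1 (0.135) or RASAL2 (0.0636). Of 6 other MAP kinase phosphatases tested in MDA-MB-436, DUSP1 rose (0.40) and DUSP10 fell (-0.50) in the authors' deposited table, and of 5 tested in BoM-1833 none was called. The responses of the lines differed for DUSP1 (z test, adjusted p = 0.00632) and not detectably for DUSP10 (0.497).

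Among ligands and receptors, 3 of 13 tested were called in BoM-1833 and 5 of 15 in MDA-MB-436, where 10.9% and 22.1% of all genes tested were called. In BoM-1833 the EGF receptor ligands TGFA and AREG rose by 0.63 and 0.55 and HBEGF fell by 0.72 in the authors' deposited table. In MDA-MB-436 NRG1 (0.91) and AXL (0.29) rose and FGFR4 (-0.42), EREG and FGFR2 fell in the authors' deposited table. Of 20 cascade genes, ARAF, BRAF and SHC1 rose and RPS6KA1 and RPS6KA3 fell in MDA-MB-436, while SHC1 rose and RPS6KA2 fell in BoM-1833. RASAL2, EREG, FGFR2 and ARAF were named after their values were seen. Whether their calls held in fits without 1 library was not examined gene by gene. The calls of DUSP10 and ATXN1L in MDA-MB-436, MYC, AREG and RPS6KA2 in BoM-1833, and SHC1 in both were each lost in at least 1 fit without 1 library, with adjusted p up to 0.176, 0.0787, 0.0547, 0.0560, 0.280 and, for SHC1, 0.0773 (MDA-MB-436) and 0.197 (BoM-1833).

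**Figure D4:**
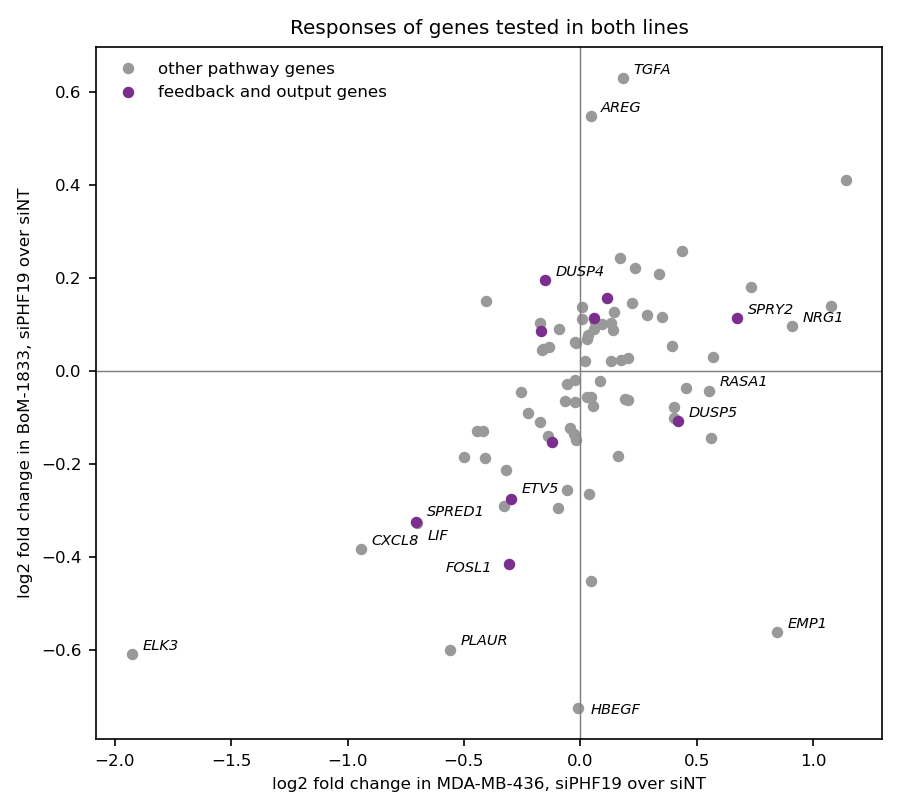
Each point is a gene tested in both lines, placed by its log2 fold change of siPHF19 over siNT in MDA-MB-436 (horizontal) and BoM-1833 (vertical) in the authors' deposited tables; purple points are the 10 feedback and output genes and grey points the 76 other pathway genes. SPRED1, ETV5, FOSL1, LIF, CXCL8, PLAUR and ELK3 lie at lower left, and EMP1 lies at lower right with 0.85 and -0.56.

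Control levels of the wider pathway were not uniformly higher in BoM-1833. Of 9 other ERK outputs, 6 were at least 2-fold higher there (PHLDA1, CCND1, EPHA2, IER3, PLAUR and EMP1) and 2 lower (EPHA4 and CXCL8). By the same rule 19.8% of 14139 genes were higher in BoM-1833. The share of all genes lower was not computed, so the counts of lower genes have no background to be read against. Of the 7 other MAP kinase phosphatases, DUSP8, DUSP9 and DUSP16 were lower in BoM-1833 and, leaving out DUSP2 with 0 to 0.283 RPM, none was higher. DUSP9, an ERK phosphatase of the DUSP6 subfamily, went from 27.2 ± 0.667 RPM in MDA-MB-436 to 0.0747 ± 0.0851 in BoM-1833 (SD, n = 3), the opposite of DUSP6. SPRY1 was higher in BoM-1833, like SPRY2 and SPRY4, with 1.11 ± 0.122 RPM against 57.5 ± 4.41 (SD, n = 3). The paralog SPRY3 was lower there, with 12.6 ± 2.65 against 1.59 ± 0.136 (SD, n = 3), and was named after its values were seen. Among genes of the cascade itself, SOS2 was at least 2-fold higher in BoM-1833 and RPS6KA3 at least 2-fold lower.

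Within the lines, several of the 10 genes varied together over the 12 libraries once each line's mean was removed. The description uses log2 (normalized count + 1), and the libraries share the siRNA contrast, so the values restate that contrast in part. SPRED1 and ETV5 had a Pearson r of 0.869, ETV5 and FOSL1 of 0.817, SPRED1 and FOSL1 of 0.786, and DUSP5 and SPRY2 of 0.780. SPRY2 and SPRED1 ran opposite, at -0.864. Among 9836 genes with a mean of at least 100 normalized counts in both tables, those most like FOSL1 were PGM2 (0.974), SH3BGRL3 (0.971), IARS (0.969), PARN (0.967) and OAF (0.959). For DUSP6, which had few reads in MDA-MB-436 and was called in neither line, they included STAT5B (0.888), ARRB1 (0.863), TTC38 (0.853) and DFFA (0.840). These values were picked as the highest of 9836 over only 12 libraries. Whether these genes track FOSL1 or DUSP6 was not tested.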

How the data were processed

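Groups and replicate numbers came from the sample titles. The authors deposited 1 DESeq2 results table per line: library columns of normalized counts (signal, read counts over 1 size factor per library), log2 fold changes with standard errors, the Wald statistic (a score) and p-values, per the file headers. The submitters' processing notes name hg38, STAR, RSEM 1.3.1 and DESeq2 1.46.0, without roles. Dividing the normalized counts by each library's step gave whole reads (100% of values, tolerance 0.01). A DESeq2 1.42.0 refit on them in R 4.3.3 made the same 3143 and 1411 calls as the authors' deposited tables, whose test is the main result over all genes, with Benjamini-Hochberg adjusted p. Alternatives used edgeR 4.0.16 (quasi-likelihood), limma 3.58.1 (at least 10 mean normalized counts, pseudocounts 1 and 10), other filters, a replicate block and fits without 1 library. The DESeq2 and edgeR fits within each line and the z test were tested on simulated reads. The members and pathway lists were chosen with earlier results of these data known. Named genes were all members, PHF19, pathway genes called in both lines or up to 3 per list and line by Wald statistic, and the 5 most like DUSP6 and FOSL1. Some genes that this rule or a pathway list names are not reported here. Exon lengths and 3′ UTRs came from GENCODE v29, promoters from RefSeq.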

Additional observations from a re-analysis of the deposited data

Results flagged for a closer look

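Responses to PHF19 siRNA that differed between the lines (z test on the authors' deposited log2 fold changes, adjusted over 12290 genes) are given as the response in BoM-1833 minus that in MDA-MB-436. Among the 10 feedback and output genes this was 0.35 for DUSP4 (adjusted p = 0.0173), -0.53 for DUSP5 (adjusted p = 2.60e-04) and -0.56 for SPRY2 (adjusted p = 0.00366). DUSP5 and SPRY2 rose in MDA-MB-436 with no call in BoM-1833, and DUSP4 rose in BoM-1833 with no call in MDA-MB-436. The DUSP4 call in BoM-1833 was lost in 9 of 15 alternatives. The difference between lines was lost in 6 of 16 for DUSP4 and in 3 of 16 for SPRY2.

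Among the named pathway genes, restraints of the pathway differed at -0.51 for DUSP1 (adjusted p = 0.00632), -0.60 for RASA1 (adjusted p = 1.49e-04) and -0.55 for RASA2 (adjusted p = 0.0299). Outputs differed at 0.56 for CXCL8 (adjusted p = 1.23e-04) and -1.41 for EMP1 (adjusted p = 2.43e-47), ligands at -0.72 for HBEGF (adjusted p = 3.45e-05) and -0.81 for NRG1 (adjusted p = 9.33e-06). The ligand EREG, named after its values were seen, differed the other way, at 0.56 (adjusted p = 0.00601). Whether the EREG difference held in fits without 1 library was not examined. The kinase gene BRAF differed at -0.54 (adjusted p = 0.0236), and the DNA-binding factors ELK3 and SRF at 1.32 (adjusted p = 3.04e-25) and -0.34 (adjusted p = 0.0461). EMP1 was the gene called in opposite directions in the lines. The differences of DUSP1, RASA2, BRAF and SRF were lost in 2, 9, 7 and 9 of the fits without 1 library, with adjusted p up to 0.0757, 0.200, 0.156 and 0.228.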

How the results depend on the processing

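With a minimum absolute log2 fold change of 0.5 the members called fell from 5 to 2 in MDA-MB-436 (SPRY2 and SPRED1) and from 4 to 0 in BoM-1833, since the minimum removes smaller changes. Without 1 library the counts ranged from 4 to 5 in MDA-MB-436, from 2 to 5 in BoM-1833, from 1 to 4 for responses that differed between lines and from 6 to 8 for control levels at least 2-fold apart. Same-numbered siNT and siPHF19 libraries did not deviate together (correlations -0.31 to 0.04, against -0.19 to 0.33 for differently numbered ones). With 3 libraries per group this cannot show whether libraries of the same number shared a batch. A replicate block left 4 calls in MDA-MB-436, 1 in BoM-1833 (FOSL1) and 2 differences between lines. Without 1 library the sign of some uncalled values turned: SPRY4 in MDA-MB-436 ranged from -0.25 to 0.023 (positive without siNT replicate 3), and the difference between lines from -0.17 to 0.10 for SPRY4, from -0.068 to 0.12 for SPRED2 and from -0.021 to 0.076 for ETV5. Of 459 values of the members under alternatives, 418 kept direction and side of the threshold and 27 lost a call. Most of the 459 belong to results that were not called and so had no call to lose. The losses were uneven: DUSP4 lost its call in BoM-1833 in 9 of 15 alternatives and its difference between lines in 6 of 16. Depth limits DUSP6 in MDA-MB-436, at 18 to 30 reads per library. For lost calls other than those at the fold minimum the cause was not tested.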
